A study of Saccharomyces cerevisiae with 26 samples.

Results

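The 33 genes described here encode the enzymes of glycolysis below hexokinase, from PGI1 to CDC19, together with those of alcoholic fermentation, gluconeogenesis, and glycerol and acetate formation. They were taken by gene identifier from the counts table, which lists 7036 genes of the yeast Saccharomyces cerevisiae, and all 33 were found there, each with a coding sequence of 1 exon in the RefSeq annotation. The data were RNA-Seq and Ribo-Seq of the haploid laboratory strain BY4742 (wt) and of derivatives lacking GIR2 (gir2Δ) or PUB1 (pub1Δ). Ribo-Seq counts the short mRNA fragments that ribosomes protect from nuclease. All strains carried MATalpha his3delta1 leu2delta0 lys2delta0 ura3delta0, and the deletion strains carried in addition a KanMX cassette, made for the study, in place of GIR2 or PUB1. Gir2 is a partner of the ribosome-binding GTPase Rbg2, and Pub1 is an RNA-binding protein that binds poly(A) and poly(U) stretches. Cells of every group were collected by filtration during exponential growth in glucose-containing YPD medium, and cycloheximide was present in the lysis buffer but not in the medium. Each lysate was divided between oligo(dT)-selected mRNA for RNA-Seq and nuclease-treated monosomes for Ribo-Seq. There were 5 wt, 4 gir2Δ and 5 pub1Δ libraries of RNA-Seq, and 4 of each strain were made by Ribo-Seq.

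Glycolysis splits glucose into pyruvate through a chain of cytosolic enzymes, and in yeast grown on abundant glucose most of the pyruvate is decarboxylated and reduced to ethanol even when oxygen is present. Several steps have paralogous isozymes, of which one usually serves growth on glucose and another is expressed when glucose runs out or under stress. The transcription factors Gcr1 and Rap1 act together upstream of many glycolytic genes, whereas gluconeogenic enzymes and the ethanol-oxidising alcohol dehydrogenase are repressed by glucose.

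Library totals were 2217490 to 3896827 counts in RNA-Seq and 540986 to 3123180 in Ribo-Seq, and the shallowest were pub1Δ Ribo-Seq replicates 1 to 3 with 684012, 986174 and 540986 counts. GIR2 had at most 16 counts in a gir2Δ library and at least 375 in a wt RNA-Seq library, and PUB1 had at most 47 counts in a pub1Δ library and at least 639 in a wt library. The labels give 4 batches without saying what a batch is: batches 1 and 4 hold wt libraries, whereas batch 2 holds only gir2Δ and batch 3 only pub1Δ. With batch as a term, the gir2Δ difference therefore rested on replicate 4 and the pub1Δ difference on replicates 4 and 5 in RNA-Seq and on replicate 4 in Ribo-Seq. For replicate 1 of pub1Δ in RNA-Seq, the genotype field names the gir2 cassette, although title and strain field say pub1Δ and the PUB1 count lay within the low range given above. The comparisons of pub1Δ with wt with batch as a term and the isozyme ratios were also computed without it, whereas those after ComBat-seq and those between the deletion strains were not. Nothing beyond a number says that replicates were separate cultures, so the tests measure the spread between these libraries, which may be technical. The α-factor genes MFALPHA1 and MFALPHA2 had at least 968 counts in every wt RNA-Seq library and the a-factor genes MFA1 and MFA2 at most 1, which is the pattern of MATalpha cells. The other 2 α-cell genes on the list went with batch: STE3 had 916 to 1491 counts in the wt RNA-Seq libraries of batch 1 and 175 to 183 in batch 4, and SAG1 778 to 1046 and 137 to 168. In wt Ribo-Seq STE3 had 668 to 780 in batch 1 and 14 to 35 in batch 4, and SAG1 1695 to 2047 and 29 to 52. The pub1Δ libraries of batches 3 and 4 were low too, with at most 310 STE3 counts for mRNA and 22 for footprints. Those of batch 1 and all gir2Δ libraries had at least 1174 and 435.

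Reads can be assigned to a glycolytic isozyme only where its sequence differs from that of its paralogs. The most similar pair was TDH2 and TDH3, both encoding glyceraldehyde-3-phosphate dehydrogenase, which differed at 42 of 999 coding bases and shared an identical run of 173 bases. The stretch of the coding sequence richest in differences between them (coding positions 64 to 123) is shown for the 3 TDH genes, because the isozyme ratios described further on rest on such bases. Capitals mark positions at which the 3 genes are not all alike. The coordinates are those of the R64 assembly (RefSeq), and each sequence reads along the coding strand.
TDH1 (chrX:338334-338393, plus strand): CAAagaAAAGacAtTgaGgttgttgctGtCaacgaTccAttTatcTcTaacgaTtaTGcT
TDH2 (chrX:454559-454618, minus strand): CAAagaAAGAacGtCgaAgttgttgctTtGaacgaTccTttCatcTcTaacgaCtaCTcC
TDH3 (chrVII:883688-883747, minus strand): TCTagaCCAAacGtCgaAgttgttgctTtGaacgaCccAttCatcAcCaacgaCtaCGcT

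The enolase genes ENO1 and ENO2 differed at 68 of 1314 coding bases, with the longest shared run at 112 bases. Their most divergent window (coding positions 340 to 399) is shown for the same reason, with the differing bases in capitals.
ENO1 (chrVII:1001266-1001325, plus strand): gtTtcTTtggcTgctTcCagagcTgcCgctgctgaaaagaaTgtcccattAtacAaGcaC
ENO2 (chrVIII:451666-451725, plus strand): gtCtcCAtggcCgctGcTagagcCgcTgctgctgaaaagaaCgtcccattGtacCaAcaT

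The authors counted uniquely mapped reads, so a read from a stretch shared by paralogs was counted for neither of them. Of all windows of 28 bases, about the length of a ribosome footprint, 45.4% occurred once in the genome for TDH2, 52.8% for TDH3 and 71.2% for TDH1. The share was 57.6% for each of ENO1 and ENO2, 80.5% for each of ADH1 and ADH2, and 86.0% for each of PYC1 and PYC2. It was 94.8% or more for the PDC genes and 100% for the other 21 genes. The levels of TDH and ENO genes given below were not adjusted for this and are lower limits.

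The 33 genes took 9.64% to 13.5% of all counts in the RNA-Seq libraries and 14.4% to 18.5% in the Ribo-Seq libraries, so that the ranges of the assays did not overlap. In RNA-Seq, the shares of wt replicates 1 to 5 were 10.2%, 13.5%, 13.0%, 11.9% and 9.69%. The wt libraries of batch 4 (replicates 2 and 3) were the highest of all 14. Mean shares in RNA-Seq were 11.7% ± 1.68 in wt (SD, n = 5), 10.1% ± 0.626 in gir2Δ (n = 4) and 11.2% ± 1.08 in pub1Δ (n = 5). In Ribo-Seq they were 16.2% ± 1.11, 14.7% ± 0.349 and 17.2% ± 1.05 (n = 4 each). The strains overlapped in RNA-Seq. In Ribo-Seq the 4 gir2Δ libraries had 14.5%, 15.16%, 14.4% and 14.8% and the wt libraries 15.21%, 17.5%, 16.8% and 15.4%. All gir2Δ libraries thus lay below wt, the closest by a small margin. The wt libraries at 17.5% and 16.8% were of batch 4, which holds no gir2Δ library. Within batch 1, gir2Δ replicate 4 had 14.8% and the wt libraries 15.21% and 15.4%. The pub1Δ libraries overlapped with wt. No test was run on these shares.

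**Figure D1:**
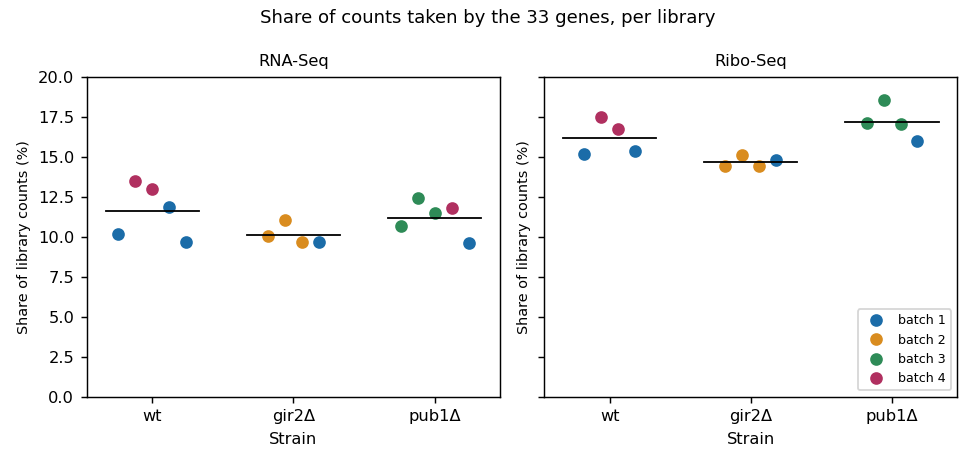
Share of all library counts (%) taken by the 33 genes in each RNA-Seq library (left) and Ribo-Seq library (right), by strain. Points are libraries coloured by batch and horizontal lines are group means. The Ribo-Seq shares (14.4% to 18.5%) all lie above the RNA-Seq shares (9.64% to 13.5%), and within wt the batch 4 libraries lie highest in both assays.

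Of the 33 genes, 28 reached the authors' minimum of 10 CPM (counts scaled to the library total) in at least 4 libraries of each assay. CPM were scaled within each assay by the trimmed mean of M-values (TMM), and to compare genes they were divided by coding length and ranked among 4461 genes. On this scale of CPM per kilobase, the wt median of TDH3 (YGR192C) was 23493 in RNA-Seq, the highest of all genes, and 17299 in Ribo-Seq, where it ranked 4. FBA1 (YKL060C), the aldolase, followed with 12563 in RNA-Seq (rank 4) and 17565 in Ribo-Seq (rank 3). ADH1 (YOL086C), the alcohol dehydrogenase that reduces acetaldehyde to ethanol, had 11381 and 12486 (ranks 5 and 9). PDC1 (YLR044C), the main pyruvate decarboxylase, ranked 11 in RNA-Seq with 8887 and 2 in Ribo-Seq with 18727. CDC19 (YAL038W), the pyruvate kinase of the last glycolytic step, ranked 41 with 5759 and 6 with 14022. The mutase GPM1 (YKL152C), the enolase ENO2 (YHR174W), the triose phosphate isomerase TPI1 (YDR050C) and the kinase PGK1 (YCR012W) completed the set of 9 genes within the first 41 ranks of both assays. Among these 9 the wt ranges of neighbours overlapped in RNA-Seq, except that the lowest TDH3 library lay above every library of the other genes.

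Below them the levels fell through several orders of magnitude. TDH2 (YJR009C; 2425 for mRNA and 2296 for footprints) and the glycerol phosphatase GPP1 (YIL053W; 1903 and 2124) came next. PGI1 (YBR196C), which interconverts glucose and fructose phosphates, had 953 and 2232, and the subunits PFK1 (YGR240C) and PFK2 (YMR205C) of phosphofructokinase had 299.7 and 246 in RNA-Seq and 649 and 690.3 in Ribo-Seq. Among the acetate genes, the cytosolic aldehyde dehydrogenase ALD6 (861 and 2024) exceeded the mitochondrial ALD4 (63.6 and 102), and the acetyl-CoA synthetase ACS2 had 147 and 315. The pyruvate carboxylases PYC1 (52.9 and 38.2) and PYC2 (90.6 and 77.1) replenish oxaloacetate. The lowest of the 28 were the minor alcohol dehydrogenase ADH5 (30.8 and 12.3) and the second pyruvate decarboxylase PDC5 (16.9 and 21.7) in RNA-Seq, and ADH4, of an unrelated iron-dependent enzyme family, in Ribo-Seq (67.0 in RNA-Seq and 5.84 in Ribo-Seq).

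**Figure D2:**
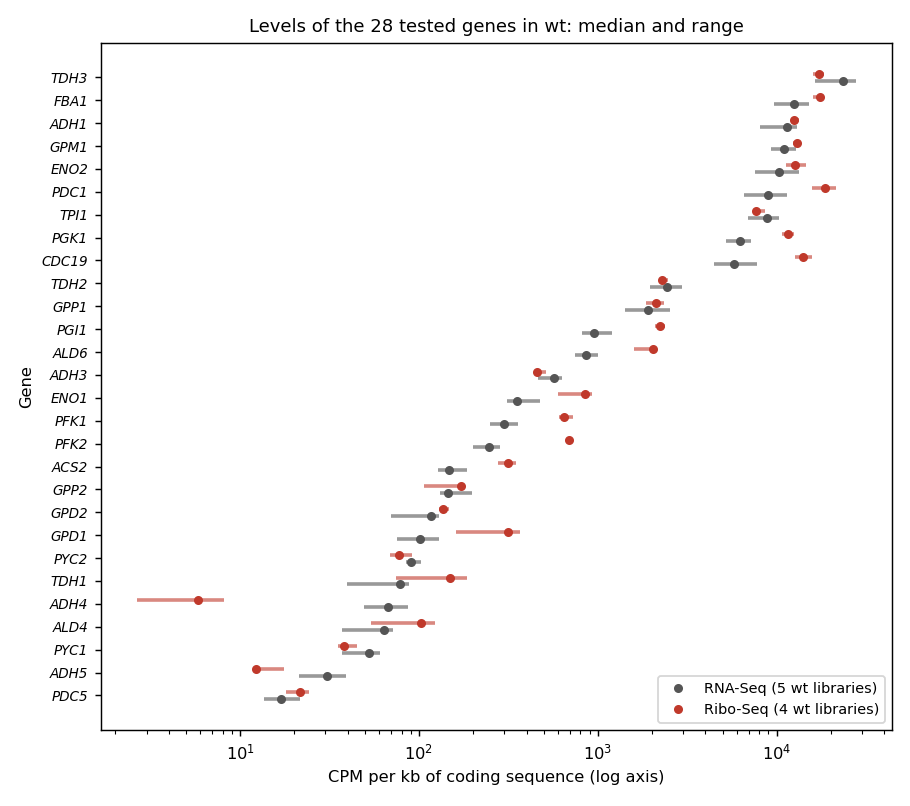
Levels of the 28 genes in wt in CPM per kilobase of coding sequence (log axis); points are medians and bars the lowest to the highest library, grey for RNA-Seq (5 libraries) and red for Ribo-Seq (4 libraries). Levels run from 16.9 (PDC5) to 23493 (TDH3) in RNA-Seq, and ADH4 has the widest separation between the assays.

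The 5 genes below the minimum were those of enzymes known to be repressed by glucose or of a minor isozyme. Fructose bisphosphatase, FBP1, specific to gluconeogenesis, had 0 to 9 counts per library in RNA-Seq and 1 to 8 in Ribo-Seq. PCK1, which makes phosphoenolpyruvate from oxaloacetate, had 3 to 25 and 1 to 6. ADH2, the alcohol dehydrogenase that oxidises ethanol, had 2 to 10 and 6 to 46. The acetyl-CoA synthetase ACS1 had 18 to 43 and 0 to 9, and PDC6, the least used pyruvate decarboxylase, had 0 to 5 and 2 to 19. None of the 5 was tested between strains by itself, and ADH2 and ACS1 enter the isozyme ratios given further on.

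Reads on the opposite strand were the larger part at 3 of them in RNA-Seq. Over the 14 libraries, ADH2 had 1247 opposite-strand reads against 69 sense counts, with 56 to 139 per library and more than the sense count in 14 of 14. FBP1 had 270 against 53, again in 14 of 14 libraries. ACS1 had 488 against 411, and the opposite strand was ahead in 9 of 14. In Ribo-Seq, ADH2 had 3 opposite-strand reads against 282 sense counts. The opposite-strand share was at most 12.8% in RNA-Seq at the other 30 genes, where the sense counts used here keep it apart.

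The upstream regions were searched on both strands, from 800 to 100 bases before the start codon, for a Gcr1 motif (CTTCC), a Rap1 motif (ACCCANACA) and the stress-response element (AGGGG). The Rap1 letters occurred upstream of 8 of the 33 genes (24.2%) and of 4.11% of 5912 genes with such a region, and the 8 were FBA1, TDH3, PGK1, GPM1, ENO1, CDC19, ADH1 and GPP1. The short Gcr1 letters were found at 27 of 33 (81.8%) against 77.7% of all, and the stress element at 20 of 33 (60.6%) against 44.7%. Both Rap1 and Gcr1 letters within 25 bases of each other occurred at PGK1, ENO1, CDC19, ADH1 and GPP1, which is 15.2% of the 33 and compares with 0.288% of all genes. Of these, the windows of 4 are shown with both motifs in capitals, as an example of the arrangement. Any relation of the motifs to the levels described below was not tested. They read along the coding strand, so that TGTGTGGGT and GGAAG at GPP1 are the same motifs on the other strand.
PGK1 (chrIII:137269-137298, 477 to 448 bases before the start codon): aaaaaACCCAGACAcgctcgaCTTCCtgtc
ENO1 (chrVII:1000441-1000470, 486 to 457 bases before the start codon): gagCTTCCactaggatagcACCCAAACAcc
CDC19 (chrI:71128-71157, 658 to 629 bases before the start codon): atgtacACCCAGACAtcgggCTTCCacaat
GPP1 (chrIX:254353-254382, 762 to 733 bases before the start codon): attagaaTGTGTGGGTgcGGAAGctcgccg
A match is a description of these letters only. They were absent from the windows of the other 25 genes for Rap1, among them PDC1, TPI1 and ENO2.

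In wt, ribosome footprints were compared with mRNA for each gene by edgeR's quasi-likelihood test on the 9 libraries, with batch as a term and Benjamini-Hochberg adjustment over 4473 genes. With TMM scaling over both assays, all 5 genes of upper glycolysis had relatively more footprints than mRNA (adjusted p under 0.05). So did 7 of 8 genes of lower glycolysis. In upper glycolysis PFK2 was higher in Ribo-Seq by 2.02 (SE 0.08) on the log2 scale, or 4.06-fold. PGI1 was higher by 1.65 and PFK1 by 1.61, and FBA1 and TPI1 by less. CDC19 (1.73), ALD6 (1.69), ENO1 (1.64), PDC1 and ACS2 (1.55 each), TDH1 (1.52) and PGK1 (1.43) lay in the same range, and GPD1, the glycerol phosphate dehydrogenase that also serves the response to osmotic stress, reached 2.01 (SE 0.19). By contrast, ADH4 was lower by 7.39-fold (log2 difference -2.89, SE 0.26). Of the 28 genes, 25 passed an adjusted p of 0.05, 23 of them with relatively more footprints, whereas 64.5% of all tested genes passed, 29.2% with more and 35.3% with fewer. The median difference was 0.88 for the 28 genes and -0.09 for all genes.

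PFK2 had 627, 819, 791, 707 and 578 CPM in wt RNA-Seq replicates 1 to 5 and 1954, 1995, 2069 and 1981 CPM in Ribo-Seq replicates 1 to 4. Its assays were separated in every library. These CPM were scaled within each assay, so their ratios differ from the tested differences. On this scale the median log2 difference between Ribo-Seq and RNA-Seq was -0.64 for all genes. For the 28 genes it was 0.38, with 20 positive and 8 negative. GPD1 had 106, 145, 88.4, 151 and 119 CPM in RNA-Seq and 366, 374, 191 and 429 in Ribo-Seq, where replicate 3 was the lowest and lay above all RNA-Seq libraries. ADH4 had 62.2, 79.8, 76.9, 99.3 and 57 CPM in RNA-Seq and 9.33, 3.04, 4.55 and 8.86 in Ribo-Seq. These Ribo-Seq levels of ADH4 rested on few reads, since no library of any strain had more than 35 counts.

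The other glycolytic genes showed smaller differences. FBA1 (0.99), ENO2 (0.78), GPM1 (0.73), TDH2 (0.44) and TPI1 (0.37) passed with more footprints, and TDH3 did not pass (0.12, SE 0.11, adjusted p = 0.353). Longer reads of TDH and ENO genes are more often placeable. Of windows of 50 bases, 68.7% occurred once for TDH2, 75.6% for TDH3, 84.3% for TDH1 and 76.4% for each ENO gene. The length of the RNA-Seq reads is not given here. If they were longer than footprints, the differences of these genes would come out too low, which was not tested. In fermentation PDC5 (0.86), ADH1 (0.75) and the mitochondrial alcohol dehydrogenase ADH3 (0.28) passed with more footprints and ADH5 with fewer (-0.55, adjusted p = 0.0461). The call of ADH5 was lost without any 1 of 6 of the 9 libraries (RNA-Seq replicates 2, 3 and 4 and Ribo-Seq replicates 1, 2 and 3; adjusted p 0.0176 to 0.124 over all libraries left out), and that of ADH3 without Ribo-Seq replicate 2 (adjusted p = 0.0517). All 4 glycerol genes passed with more, with GPD2 at 0.91, GPP1 at 0.65 and GPP2 at 0.58 beside GPD1, and ALD4 did so among the acetate genes (1.24). The pyruvate carboxylases PYC1 (0.16) and PYC2 (0.26) did not pass.

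The size of these differences depends on where zero is set. With library totals alone, an alternative added after the data had been seen, the median of all genes moved to -0.63 and that of the 28 genes to 0.34. Then 17 genes passed with more footprints and 7 with fewer, and 77.1% of all genes passed. TPI1 (-0.17) and ADH3 (-0.27) turned to fewer footprints and passed, as did TDH3, PYC1 and PYC2, which had not passed before. TDH2 turned to -0.11 without passing, and GPP1, GPP2 and PDC5 no longer passed. The genes with differences above 1 with TMM scaling kept their direction. The libraries were made from whole cultures, so that a change in every cell and a change in the share of cells expressing a gene cannot be told apart.

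**Figure D3:**
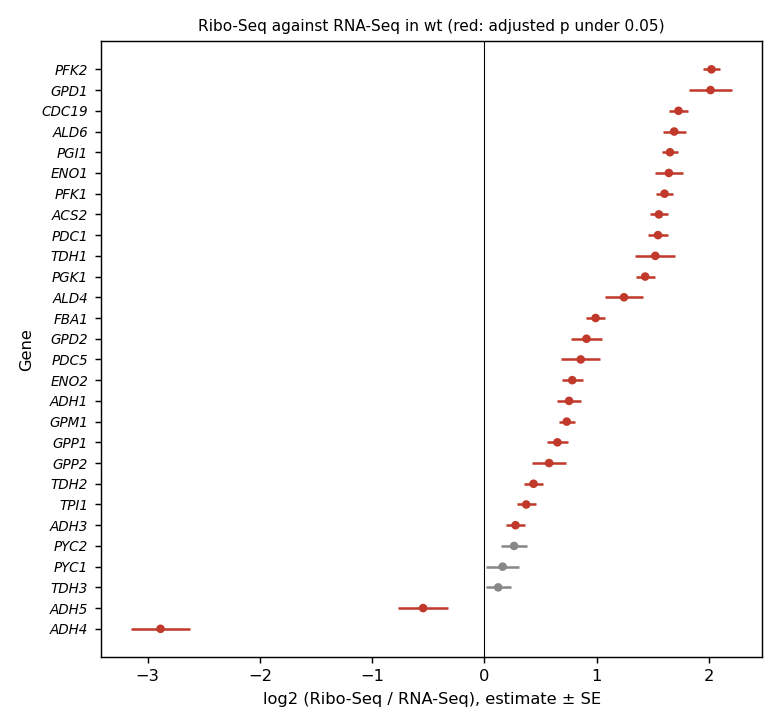
Difference between Ribo-Seq and RNA-Seq in wt for the 28 genes on the log2 scale with TMM scaling over both assays; points are estimates, bars are standard errors, and red marks an adjusted p under 0.05. From PFK2 at 2.02 to ADH4 at -2.89, 23 genes passed with more and 2 with fewer footprints.

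In gir2Δ, none of the 28 genes passed an adjusted p of 0.05 in RNA-Seq, Ribo-Seq or ribosome occupancy, the last being the strain difference in footprints relative to the difference in mRNA. Of all 4473 genes, 0.0671% passed in RNA-Seq, 0.0224% in Ribo-Seq and 0% in occupancy, and DESeq2 called none of the 28 in any of these comparisons. At an unadjusted p of 0.05 the counts of these genes were 0, 2 and 0, where all genes gave 14%, 8.43% and 7.6%. The genes with the largest differences were GPD1 in RNA-Seq (-0.58, SE 0.37), TDH1 in Ribo-Seq (-0.64, SE 0.44) and GPD2 in occupancy (0.61, SE 0.31), each with a standard error that leaves a wide interval. The median difference of the 28 genes was -0.12 in RNA-Seq, -0.08 in Ribo-Seq and 0.02 in occupancy.

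The 2 genes under an unadjusted p of 0.05 were ALD6 (-0.54, SE 0.16) and PYC1 (-0.50, SE 0.20), both in Ribo-Seq, with adjusted p = 0.418 and 0.543 by edgeR. ALD6 had 2944, 3140, 2395 and 3142 CPM in wt Ribo-Seq and 2280, 2415, 2328 and 2095 in gir2Δ. The groups overlapped through wt replicate 3 and gir2Δ replicate 2. PYC1 had 133, 160, 124 and 137 CPM in wt and 106, 108, 96.7 and 95.2 in gir2Δ, and here all gir2Δ libraries lay below all wt libraries. In RNA-Seq, GPD1 had 69.1, 82.5, 96.9 and 77.2 CPM in gir2Δ, where replicate 3 overlapped the lowest wt library of 88.4. GPD2 had 133, 121, 93.4 and 93.3 CPM in gir2Δ RNA-Seq and 114, 158, 171, 155 and 92.7 in wt. Its Ribo-Seq levels were 187, 166, 165 and 205 in gir2Δ and 179, 179, 196 and 170 in wt, so the strains overlapped in both assays.

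Some ways of handling batches gave calls, whereas leaving the batch term out or using a replicate block in its place gave none. When counts were first adjusted for batch by ComBat-seq and strains then compared without a batch term, as the study's methods describe, 12 of the 28 genes passed in RNA-Seq (33.9% of all genes), 4 in Ribo-Seq (25.4%) and 3 in occupancy (22.6%). The 12 were 3 with higher and 9 with lower levels in gir2Δ, namely PFK2, TPI1, PGK1, CDC19, PDC5, ADH4, PYC1, GPD1, GPD2, GPP2, ALD6 and ALD4. Those in Ribo-Seq were PYC1, GPD2, ALD6 and ALD4. With only the gir2Δ and wt libraries of batches 1 and 2 and no batch term, an alternative added after the data had been seen, ALD4, GPD1, GPP2, PYC1 and TDH1 were lower in RNA-Seq (5.45% of all genes passed) and ALD4 and ALD6 passed in Ribo-Seq (0.604%). In that alternative strain and batch cannot be told apart for gir2Δ replicates 1 to 3.

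In pub1Δ, likewise, none of the 28 genes passed in RNA-Seq (0.0447% of all genes), Ribo-Seq (0.134%) or occupancy (0%), also with DESeq2 and without pub1Δ RNA-Seq replicate 1. At an unadjusted p of 0.05 there were 4 genes in RNA-Seq, 4 in Ribo-Seq and 0 in occupancy, against 9.39%, 7.91% and 3.76% of all genes. In RNA-Seq these were PYC2 (-0.36), TDH3 (-0.34), PDC1 (-0.29) and PGK1 (-0.29), and in Ribo-Seq PYC1 (0.38), PFK2 (0.32), ADH3 (0.31) and PFK1 (0.21). The smallest adjusted p by edgeR was 0.286 in RNA-Seq and 0.367 in Ribo-Seq. Of the occupancy differences 21 were positive and 7 negative, with a median of 0.23 where all genes had 0.01, and none had an unadjusted p under 0.05.

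PYC2 had 257, 259, 229, 263 and 248 CPM in pub1Δ RNA-Seq and 301, 351, 321, 364 and 299 in wt, without overlap between the groups. TDH3 had 19092, 21322, 19768, 21195 and 15844 CPM in pub1Δ and 18178, 27881, 27908, 23470 and 16343 in wt, and these groups overlapped. PFK2 had 2624, 2609, 2218 and 2461 CPM in pub1Δ Ribo-Seq, all above the wt libraries of 1954 to 2069. PFK1 in Ribo-Seq had 2293, 2395, 2225 and 2108 CPM in pub1Δ and 1851, 1998, 2144 and 1790 in wt, with an overlap between pub1Δ replicate 4 and wt replicate 3.

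TDH1, a minor glyceraldehyde-3-phosphate dehydrogenase known for expression under stress and in stationary phase, varied 5.05-fold between the pub1Δ RNA-Seq libraries. It had 34.7, 107, 137, 175 and 51.4 CPM in pub1Δ and 78.4, 73.9, 39.4, 88.1 and 78.2 in wt. Its estimate of 0.57 (SE 0.44) was the largest of the 28 genes in that comparison, yet it became -0.67 without pub1Δ replicate 4 and 1.62 without replicate 5. Its occupancy estimate of -0.92 (SE 0.71) was likewise the largest and became 0.33 without RNA-Seq replicate 4 and -1.99 without replicate 5. In Ribo-Seq the largest estimate was that of GPD1 (-0.43, SE 0.34), which had 171, 299, 362 and 296 CPM in pub1Δ and 366, 374, 191 and 429 in wt. These groups overlapped too.

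ComBat-seq followed by strain alone again gave more calls. PYC2, TDH3, PDC1 and PGK1 passed with lower levels in pub1Δ RNA-Seq (11% of all genes) and PFK1, PFK2, TDH2, ADH3, PYC1 and PYC2 passed in Ribo-Seq (12.2%), with 0 genes in occupancy. With only the pub1Δ and wt libraries of batches 3 and 4 and no batch term, 0 of the 28 genes passed in RNA-Seq or Ribo-Seq. Shares of all genes are not given for this setting or for occupancy after ComBat-seq. A direct comparison of the deletion strains gave 0 of 28 in either assay. Of all 4473 tested genes, 14 passed in RNA-Seq and 17 in Ribo-Seq. PYC1 in Ribo-Seq came closest to passing, with gir2Δ minus pub1Δ at -0.88 (SE 0.21). With batch as a term, this estimate rested on replicate 4 of each strain (95.2 and 175 CPM), the only batch 1 library of either. The 106, 108, 96.7 and 95.2 CPM of gir2Δ lay below the 122, 156, 178 and 175 of pub1Δ. Outside batch 1, however, strain and batch cannot be told apart in these libraries.

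The wt libraries, which lie in batches 1 and 4, were also compared with each other by batch. In RNA-Seq 11 of 28 genes passed, 10 of them higher in batch 4 (30.3% of all genes passed, 10.2% higher and 20.1% lower). The 10 were 3 of 5 genes of upper glycolysis, 4 of 8 of lower glycolysis, PDC1 alone of 6 tested fermentation genes, GPP1 of 4 glycerol genes and ACS2 of 3 tested acetate genes. The higher genes were ENO2 (0.54, SE 0.15, or 1.46-fold), CDC19 (0.50), PDC1 (0.50), TDH3 (0.48), GPP1 (0.47), FBA1 (0.42), TDH2 (0.38), PGI1 (0.37), PFK1 (0.32) and ACS2 (0.32), and TDH1 fell by 0.57 (SE 0.19). ENO2 had 11159.5, 13539 and 9946 CPM in the batch 1 libraries and 17192 and 17611 in the batch 4 libraries. PDC1 had 12413, 15038 and 11182 in batch 1 and 19430.4 and 18232 in batch 4. For both genes the batches did not overlap.

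This RNA-Seq result rested on few libraries. The number of genes passing was 0 without wt replicate 1, 6 without replicate 2, 2 without replicate 3, 19 without replicate 4 and 2 without replicate 5. Shares of all genes are not given for these fits. A loss of calls over the whole table therefore cannot be told from one at these genes. The estimate of TDH1 was -1.09 without replicate 2 and -0.20 without replicate 3. Batch 4 holds 2 of the 5 wt RNA-Seq libraries, and the share of counts taken by the 33 genes was 13.5% and 13.0% in these and 10.2%, 11.9% and 9.69% in batch 1. STE3 and SAG1 counts moved with the same split, as given above, and their part in these differences was not tested.

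In Ribo-Seq 14 of 28 genes passed (31.1% of all genes, 11.2% higher and 20% lower), but 8 with DESeq2 and 5 with strain-by-batch groups over all libraries. The 31.1% belongs to the edgeR fit of the wt libraries. Shares of all genes are not given for DESeq2, the strain-by-batch groups or the fits with a library left out. PDC1 (0.38, SE 0.04), PYC2 (0.35), CDC19 (0.30), GPP1 (0.30), ENO2 (0.27), ACS2 (0.23), FBA1 (0.18), PGI1 (0.17) and GPM1 (0.13) were higher in batch 4. ADH4 (-1.22, SE 0.41), TDH1 (-0.78, SE 0.20), ALD4 (-0.70, SE 0.19), ENO1 (-0.37) and PGK1 (-0.17) were lower. Between 6 and 15 genes passed when a library was left out, with 7, 15, 10 and 6 without replicates 1, 2, 3 and 4, and CDC19, ENO2, FBA1, GPP1, PDC1 and PGK1 were called in every case. Of these 6, all but PGK1 had also passed as higher in RNA-Seq. PGK1 had 6879, 7851 and 6536 CPM in the RNA-Seq libraries of batch 1 and 8961 and 8510 in batch 4, without passing. Its mRNA and footprints thus went in opposite directions. The calls of ADH4 and GPM1 were lost without any one of the 4 libraries, and that of TDH1 without replicate 4, of ALD4 and PYC2 without 1 or 4, of ENO1 and PGI1 without 1, 3 or 4, and of ACS2 without 1, 2 or 4. Without replicate 2 the estimates of TDH1, ALD4 and ENO1 were -1.20, -1.10 and -0.57, and without replicate 3 they were -0.43, -0.37 and -0.19.

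CDC19 had 19169.5 and 18915 CPM in batch 1 and 23795 and 22979.6 in batch 4. TDH1 had 167 and 184 CPM in batch 1 and 132 and 74.8 in batch 4. ALD4 had 175 and 193 CPM in batch 1 and 144 and 83.9 in batch 4. In all 3 genes the batches did not overlap, and for TDH1 and ALD4 the lowest library was replicate 3.

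In occupancy, 0 of 28 genes passed between the wt batches by edgeR (13% of all genes) and 0 by DESeq2, and 2 had an unadjusted p under 0.05 (26.8% of all genes). The labels do not say whether wt RNA-Seq and Ribo-Seq libraries of the same number come from one lysate. If they are taken as pairs, with the number as a block, PYC1 and PYC2 passed with higher occupancy in batch 4 (15.4% of all genes). Without that block their estimates were 0.55 (SE 0.23) and 0.49 (SE 0.18). PYC1 passed without wt RNA-Seq replicate 2, GPP2 without Ribo-Seq replicate 2, and without wt RNA-Seq replicate 4, ADH1, ADH4, PGK1, TDH2 and TDH3 passed with lower occupancy.

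**Figure D4:**
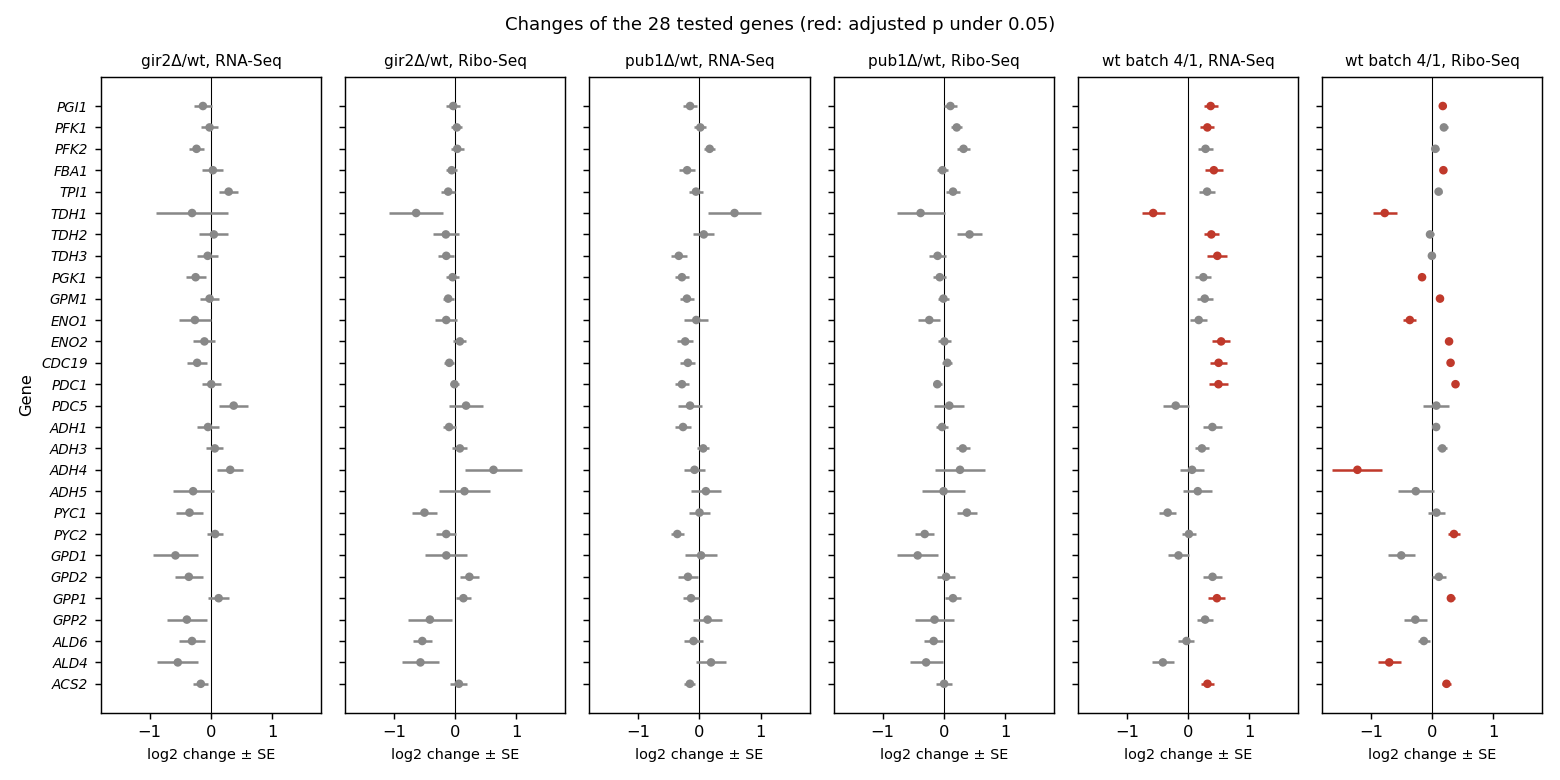
Log2 differences of the 28 genes between gir2Δ or pub1Δ and wt and between wt batches 4 and 1, in RNA-Seq and Ribo-Seq; points are edgeR estimates, bars are standard errors, and red marks an adjusted p under 0.05. Red points occur only between the wt batches (11 in RNA-Seq and 14 in Ribo-Seq).

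Choice of isozyme was measured as the ratio of counts per kilobase in each library, for 11 pairs. PFK1 and PFK2, which are subunits of one complex, were included among them. In wt RNA-Seq, for every 100 counts per kilobase of the major gene there were 10.3 to 12.0 of TDH2 to TDH3, 0.142 to 0.480 of TDH1 to TDH3, 2.54 to 4.15 of ENO1 to ENO2 and 0.127 to 0.258 of PDC5 to PDC1. ADH2 had at most 0.0351 per 100 of ADH1, ACS1 at most 4.51 per 100 of ACS2, ALD4 5.02 to 7.99 per 100 of ALD6 and GPP2 5.84 to 9.38 per 100 of GPP1. Nearer to even were PFK2 to PFK1 (78.2 to 82.0), GPD2 to GPD1 (69.0 to 172) and PYC2 to PYC1 (161 to 245). In wt Ribo-Seq, ENO1 had 4.46 to 8.21 per 100 of ENO2 and GPD2 35.3 to 91.3 per 100 of GPD1.

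Each pair was tested for each strain against wt in each assay by an exact two-sided permutation test of the mean log2 ratio. None of the 44 tests passed after Benjamini-Hochberg adjustment, the smallest adjusted p being 0.175, and 4 had an unadjusted p under 0.05. With these group sizes the smallest possible p was 0.00794 in RNA-Seq and 0.0286 in Ribo-Seq. A single pair could therefore not pass after adjustment over 44 tests in either assay. Libraries were exchanged across batches, although batches 2 and 3 hold a single strain and some ratios differed between the wt batches (TDH1 to TDH3 by -1.14 on the log2 scale in RNA-Seq), so that these p-values, unlike those of single genes, take no account of batch. Within-batch values are therefore given beside the ratios with an unadjusted p under 0.05.

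The pair with the largest of these 4 differences was TDH2 and TDH3 in pub1Δ. For every 100 counts per kilobase of TDH3, TDH2 had 20.9, 22.3, 14.1, 12.1 and 16.7 in pub1Δ RNA-Seq replicates 1 to 5 and 11.6, 10.3, 10.6, 10.3 and 12.0 in wt. All 5 pub1Δ libraries lay above all wt libraries, replicate 4 only just. The mean log2 ratio, given with its SD over 5 libraries, was -2.58 ± 0.37 for pub1Δ against -3.19 ± 0.10 for wt, a difference of 0.61 (exact permutation p = 0.00794, adjusted p = 0.175). Without pub1Δ replicate 1 the difference was 0.53, and over all libraries left out it was 0.51 to 0.73. In Ribo-Seq the pub1Δ libraries had 19.4, 20.9, 16.2 and 19.6 and the wt libraries 13.2, 12.7, 14.0 and 14.1, again without overlap. The difference in mean log2 ratio was 0.49 (exact permutation p = 0.0286, adjusted p = 0.349).

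Within batches the direction was the same. In batch 1, pub1Δ RNA-Seq replicate 5 had 16.7 and the wt libraries 10.3 to 12.0, and pub1Δ Ribo-Seq replicate 4 had 19.6 and the wt libraries 13.2 and 14.1. In batch 4, pub1Δ RNA-Seq replicate 4 had 12.1 and the wt libraries 10.3 and 10.6. Reads of these genes are told apart by bases such as those that differ between the TDH2 and TDH3 windows above. Scaling by uniquely placeable windows instead of length moved the wt Ribo-Seq median from 13.6 to 15.8 and leaves comparisons between strains as they are. By gene, TDH2 was at 3986, 4744, 2788, 2555 and 2641 CPM in pub1Δ RNA-Seq and at 2104, 2875, 2963, 2422 and 1966 in wt, so that neither TDH2 nor TDH3 alone separated the strains.

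In gir2Δ RNA-Seq, PFK2 had 74.8, 71.8, 72.7 and 68.9 per 100 of PFK1 and in wt 78.5, 79.4, 78.2, 82.0 and 80.7. All 4 gir2Δ libraries lay below all wt libraries, and the mean log2 ratio differed by -0.15 (exact permutation p = 0.00794, adjusted p = 0.175). Within batch 1, gir2Δ replicate 4 had 68.9 and the wt libraries 78.5 to 82.0. In Ribo-Seq gir2Δ had 109 to 112 and wt 99.3 to 114, with overlap. GPP2 had 4.79, 5.67, 7.10 and 5.50 per 100 of GPP1 in gir2Δ RNA-Seq, 3 of them below the lowest wt library of 5.84, for a log2 difference of -0.50 (exact permutation p = 0.0317, adjusted p = 0.349). Within batch 1, gir2Δ replicate 4 had 5.50 and the wt libraries 7.63 to 9.29. The p of this pair ranged from 0.0286 to 0.0714 when a library was left out.

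Between the wt batches, the minor isozyme was lower in batch 4 for several pairs in both assays. ENO1 had 4.15, 3.71 and 4.08 per 100 of ENO2 in the RNA-Seq libraries of batch 1 and 3.61 and 2.54 in batch 4. In Ribo-Seq it had 7.43 and 8.21 in batch 1 and 5.54 and 4.46 in batch 4. The batches were also separate in both assays for TDH1 to TDH3 and ALD4 to ALD6, which were lower in batch 4, and for PYC2 to PYC1, which was higher. ACS1 to ACS2 was separate in both assays too, lower in RNA-Seq and higher in Ribo-Seq, where ACS1 had at most 9 counts. No test was made, since the numbers of libraries per batch are 3 and 2 in RNA-Seq and 2 and 2 in Ribo-Seq.

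**Figure D5:**
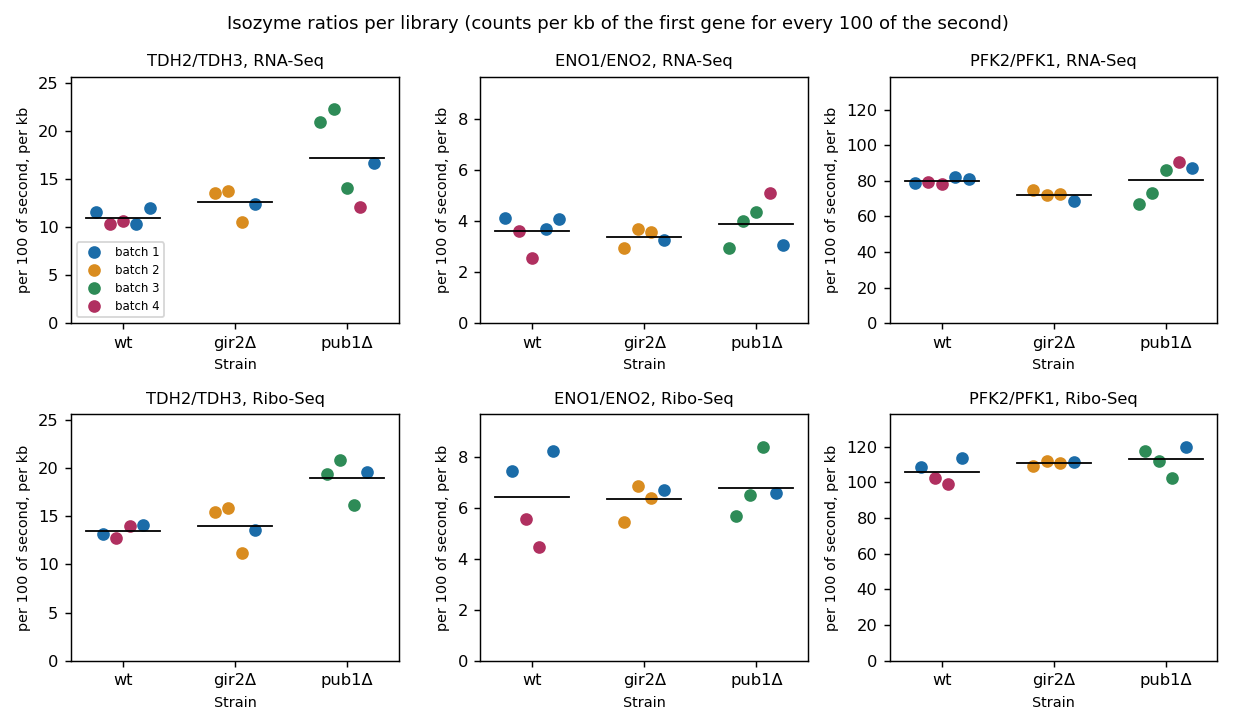
Counts per kilobase of TDH2, ENO1 and PFK2 for every 100 of TDH3, ENO2 and PFK1, by strain in RNA-Seq (top) and Ribo-Seq (bottom). Points are libraries coloured by batch and lines are means. For TDH2 all pub1Δ libraries (12.1 to 22.3 in RNA-Seq and 16.2 to 20.9 in Ribo-Seq) lie above all wt libraries (10.3 to 12.0 and 12.7 to 14.1).

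Other enzymes of these pathways and their regulators were taken from lists as well. Of 22 further enzymes and transporters, 14 passed the minimum and 0 were called by edgeR in any of the 6 strain comparisons, with 0 to 3 at an unadjusted p of 0.05. Of 9 regulators, 8 passed and 0 were called, with 0 to 2 at an unadjusted p of 0.05. Between footprints and mRNA in wt, 9 of the 14 enzymes and transporters and 6 of the 8 regulators were called, where all tested genes gave 64.5%. Of the first list, the minor pyruvate kinase PYK2 (0.68), GPM2 (0.84), ADH6 (0.42), MDH2 (0.42) and ACH1 (0.90) were higher, and PFK27 (-0.999), ALD2 (-0.66), BDH1 (-0.63) and the glycerol channel gene FPS1 (-0.94) were lower. Of the regulators, RAP1 (1.14), TYE7 (0.76) and MIG1 (0.55) were higher. GCR1 (-2.54), GCR2 (-0.60) and PDC2 (-0.33) were lower. GCR1, whose product activates glycolytic genes, thus lay at the other end from most of the enzymes.

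Between the wt batches, 3 of the 14 enzymes and transporters and 2 of the 8 regulators passed for mRNA, 4 and 1 for footprints, and 1 and 1 for occupancy, beside 30.3%, 31.1% and 13% of all genes. In RNA-Seq, the malate dehydrogenase MDH2 was higher in batch 4 (0.50) and GUT2 (-0.89) and FPS1 (-0.89), of glycerol use and export, were lower, as were the regulators GCR1 (-0.36) and ADR1 (-0.68). In Ribo-Seq GPM3 (0.71) and ALD5 (0.49) were higher and GUT2 (-1.60), FPS1 (-1.79) and MIG1 (-0.50) lower. In occupancy FPS1 was lower (-0.76) and GCR1 higher (1.149).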

How the data were processed

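The authors trimmed reads (cutadapt 2.10), collapsed duplicates in Ribo-Seq before cutting off the barcodes, discarded rRNA reads with bowtie2 1.2.3 (the version as their notes give it) and counted uniquely mapped reads with STAR 2.7.9a against the R64 genome. The deposited values are raw whole-number counts per gene, without normalization, and the 26 columns of the series table equalled the sense-strand columns of the library files. Duplicates were removed in Ribo-Seq alone, which can lower its most abundant genes, and reads shared by paralogs were not counted. Library depths are given in the report.

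Genes reaching 10 CPM in at least 4 libraries of each assay (4473, of 6866 with any count) were tested by edgeR 4.0.16 (R 4.3.3) with TMM factors, the quasi-likelihood F-test and Benjamini-Hochberg adjustment over all tested genes, with a threshold of 0.05. Strain fits used all libraries of an assay with batch as a term, and occupancy was the interaction of strain and assay with a batch term for each assay. The study's own approach, ComBat-seq (sva 3.50.0) followed by strain alone, was an alternative. Isozyme ratios (counts per kilobase after adding 0.5 count) were tested by exact permutation over libraries. Further alternatives were other filters, scalings and strands, DESeq2 1.42.0, no batch term, a replicate block, and leaving out each library. Scripts were tested on simulated data. Sequences were read from the RefSeq R64 genome. Named with values were genes called in any comparison, isozyme pairs, genes below the minimum, and the largest difference in each comparison. Other genes with an unadjusted p under 0.05 were named after their values were seen. The 33 genes and all lists were chosen with earlier results of these data known. The gene list gave CDC19 as YAL038C, and the table's YAL038W was used. The block within wt took RNA-Seq and Ribo-Seq libraries of the same number as pairs, although the labels do not say that these share a lysate. Their correlations of deviations were 0.76 to 0.81. Unlike numbers were not compared, and the numbers go with batch, so these values cannot show the pairing.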

Additional observations from a re-analysis of the deposited data

Results flagged for a closer look

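Of 240 sets of 4 or 5 libraries of a strain and assay, 10 had a library set apart from the others by Dixon's test at the 95% level, where chance sets apart about 1 in 20. In RNA-Seq, GPP2 was at 150 CPM in wt replicate 2 and at 99.2 to 111 in the other wt libraries. ENO1 was at 454 CPM in gir2Δ replicate 2 and at 350.1 to 368 in the others. The log2 ratio of ENO1 to ENO2 was -5.30 in wt replicate 3 and -4.79 to -4.59 in the others, and that of ACS1 to ACS2 was -5.28 in gir2Δ replicate 1 and -4.50 to -4.34 in the others.

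In Ribo-Seq, TPI1 was at 6413 CPM in wt replicate 2 (others 5619.9 to 5709) and at 6103 in gir2Δ replicate 2 (others 5215 to 5360.2), and FBA1 was at 18144 in gir2Δ replicate 2 (others 16729 to 16915). ADH5 was at 18.6 CPM in wt replicate 4 (others 12.9 to 13.1). In the same library the log2 ratio of ADH2 to ADH1 was -10.72, where the others had -9.95 to -9.86. GPD2 was at 143 CPM in pub1Δ replicate 3, the shallowest library, and at 179 to 187 in the others.

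Reads on the strand opposite to the gene, which enter no comparison, outnumbered sense counts in RNA-Seq at ADH2 (1247), FBP1 (270) and ACS1 (488). At ADH2 they were 56 to 76 per library in wt, 86 to 139 in gir2Δ and 67 to 121 in pub1Δ. At FBP1 they were 15 to 21, 18 to 25 and 17 to 20. The strains were not tested for these reads.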

How the results depend on the processing

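The absence of calls in the 6 strain comparisons held under other filters, scalings, DESeq2, no batch term and each library left out (0 to 0 genes), with these exceptions. Counting both strands gave 1 gene in gir2Δ RNA-Seq (CDC19, of whose RNA-Seq counts 12.3% then remained). ComBat-seq gave 12, 4 and 3 genes for gir2Δ in RNA-Seq, Ribo-Seq and occupancy and 4 and 6 for pub1Δ in RNA-Seq and Ribo-Seq. The gir2Δ and wt libraries of batches 1 and 2 gave 5 and 2. The causes were not tested. The fits without gir2Δ replicate 4, or without pub1Δ Ribo-Seq replicate 4, could not be fitted in their assay and in occupancy. Correlations of deviations between libraries of the same number were -0.17 to 0.02 between wt and gir2Δ and -0.58 to 0.89 between wt and pub1Δ. The 0.89 belongs to Ribo-Seq replicates 4, both of batch 1, so these values cannot separate pairing by number from batch. A replicate block in place of batch gave 0 genes in all 6 comparisons and 25 between footprints and mRNA. Between the wt batches, leaving out a library gave 0 to 19 genes in RNA-Seq, 6 to 15 in Ribo-Seq and 0 to 5 in occupancy. DESeq2 gave 8 in Ribo-Seq and strain-by-batch groups over all libraries 5. Shares of all genes are not given for these or for the libraries left out. In occupancy 30 CPM as the minimum gave 1 (PYC2) and the block within wt 2. Between footprints and mRNA 23 to 25 genes passed without a library. Isozyme ratios gave 0 in each alternative, which says nothing about their stability, since a single pair could not pass. Directions turned for CDC19 between the wt batches in Ribo-Seq when both strands were counted (-0.13), for which 48.9% of the Ribo-Seq counts remained, for TDH1 in pub1Δ RNA-Seq (-0.67 to 1.62 over libraries left out) and occupancy (-1.99 to 0.33, and 0.0604 with the replicate block), and with library totals for TPI1 (-0.17), TDH2 (-0.11) and ADH3 (-0.27), as well as TDH3, PYC1 and PYC2. Depth limits ADH4 and the 5 genes below the minimum most.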
